A study of Mus musculus with 12 samples.

Results

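The pyruvate dehydrogenase complex and the enzymes that switch it were followed in fast muscle of mice without the gamma3 subunit of AMPK. AMPK is a kinase that senses low cellular energy, and muscle rich in fast fibres is where gamma3 is mostly made. The genes were Pdha1, Pdhb, Dlat and Dld, which encode the subunits, the kinase genes Pdk1, Pdk2 and Pdk3, and the phosphatase gene Pdp1. Members were all probe sets whose platform annotation names 1 of these genes and no other. This found 12 probe sets of 7 of the 8 genes, out of 22626 probe sets and 12393 genes in all, and Pdp1 was not analysed here. The compared tissue was the white portion of the gastrocnemius, a calf muscle of mostly fast fibres, from 6 AMPK gamma3 knockout mice and 6 wild type littermates. All were male C57BL/6 mice of generation F7, aged 14 weeks and fasted overnight, so both groups share the fasted state. The notes in the array records call the knockout mice homozygous, and the design text calls the mice of each genotype biological replicates. The sources used here do not say how the allele was made, and Prkag3, which encodes gamma3, was not analysed here.

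Pyruvate dehydrogenase turns pyruvate, the end product of glycolysis, into acetyl-CoA inside mitochondria, and so commits glucose carbon to oxidation. The E1 enzyme (Pdha1 and Pdhb) removes carbon dioxide, the E2 core (Dlat) passes the acetyl group to coenzyme A on a lipoyl arm, and E3 (Dld) reoxidises that arm. Pyruvate dehydrogenase kinases phosphorylate the E1 alpha subunit and turn the complex off, and phosphatases such as the Pdp1 product turn it back on. In fasted muscle this brake is known to be applied, mainly through Pdk4 and Pdk2, which spares glucose while fatty acids are burned.

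Each mouse gave 1 Affymetrix MOE430A array, on which a probe set reads 1 stretch of transcript, and values are the authors' RMA intensities on the log2 scale. The arrays correlated at 0.991 to 0.997 with each other and no pair was identical. The array records name no runs. By recorded hybridization times within 60 minutes of the next, the arrays were grouped into 3 sets of 4, called fluidics runs here. Every run held 2 arrays per genotype. The tissue label was checked against 11 measured fast fibre genes, whose mean levels all lay at or above the 99.1 percentile of probe sets. Actn3, the alpha-actinin of fast fibres, averaged 14.07 ± 0.0317 in knockout and 14.04 ± 0.0551 in wild type (SD, n = 6 each). The 13 measured slow fibre genes had a median percentile of 86.0, from 48.0 for Sln to 99.6 for Mb. With no other muscle measured, these levels cannot tell the white portion from mixed muscle. In this bulk tissue, fewer cells of a type cannot be told apart from less RNA per cell.

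No member passed the threshold of 0.05 adjusted over all 22626 probe sets, where 0.0133% of all probe sets did (limma, smallest member adjusted p = 0.716). Of the 8 subunit probe sets 7 were lower in knockout, with a median difference of -0.13 on the log2 scale, and of the 4 kinase probe sets 1 was lower, with a median of 0.035. The probe sets are not independent, since 3 of the subunit probe sets read Dlat. By brightest probe set, 3 of the 4 subunits were lower, and the difference between subunits and kinases was not tested. Over all tested probe sets 52.9% were lower, with a median of -0.0047. Among the 11313 probe sets above the median level, where all members but Pdk1 1423747_a_at lay, 46.8% were lower, with a median of 0.0055. At an unadjusted p below 0.05, 276 of the 11313 were lower and 594 higher. Of the 12 member probe sets, 3 had an unadjusted p below 0.05, all with lower values in knockout, against 6.04% of all probe sets, 2.69% lower and 3.35% higher. These 3 were 2 of Dlat and the 1 of Dld. The genotypes overlapped at all 12 member probe sets, and they did not overlap at 0.38% of all probe sets.

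**Figure D1:**
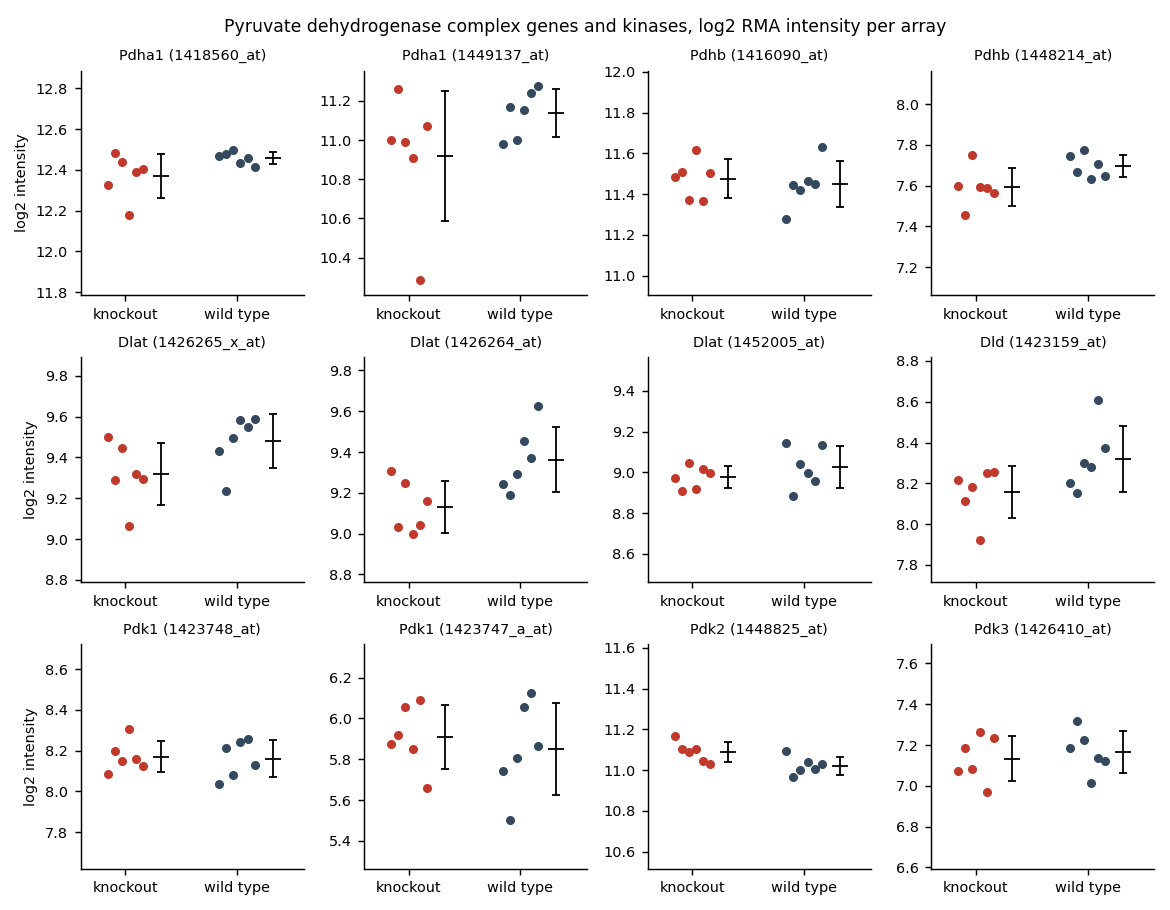
Log2 RMA intensity (y axis) of each member probe set on each array, with 6 knockout arrays left of 6 wild type arrays in each panel and the mean ± SD beside each group. Panels have their own y range. The points of the genotypes overlap in all 12 panels, and 1 knockout array lies at 10.29 in the second Pdha1 panel, away from the rest.

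Dlat, the E2 core of the complex, showed the largest difference among the members, at 1 of its 3 probe sets. The probe set 1426264_at ran from 9.0 over a median of 9.10 to 9.31 in knockout, against 9.19, 9.33 and 9.63 in wild type. All 6 knockout arrays lay below the wild type median, and 4 of them below every wild type array. The difference was -0.23 ± 0.0745 (SE), or -14.9%, with a 95% interval from -0.39 to -0.075 (limma, unadjusted p = 0.00631, adjusted p = 0.716). An exact permutation test over the 924 splits of the arrays gave a two-sided p of 0.0216 for this single value, where the smallest possible is 0.00216.

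The brightest Dlat probe set, 1426265_x_at, carries the _x_ suffix that Affymetrix gives where some probes also match other transcripts. It ran from 9.07 over a median of 9.31 to 9.50 in knockout and from 9.24 over 9.52 to 9.59 in wild type. Again all 6 knockout arrays lay below the wild type median, but only 1 lay below every wild type array. Its difference was -0.16 ± 0.0739 (95% interval -0.32 to -0.0046, limma, adjusted p = 0.818). The third probe set, 1452005_at, gave 8.91, 8.98 and 9.05 as lowest, median and highest in knockout, against 8.88, 9.02 and 9.14 in wild type. Here the knockout values lay inside the wild type range, with a difference of -0.049 ± 0.0527 (95% interval -0.16 to 0.062, adjusted p = 0.952). The mean of the 3 probe sets differed by -0.15 ± 0.0610 (limma, adjusted p = 0.809).

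Dld encodes E3, which pyruvate dehydrogenase shares with the other 2-oxo acid dehydrogenase complexes and the glycine cleavage system. Its probe set ran from 7.92 over a median of 8.20 to 8.26 in knockout, against 8.15, 8.29 and 8.61 in wild type. All 6 knockout arrays lay below the wild type median, and 2 lay below the lowest wild type array. The difference was -0.16 ± 0.0748, or -10.7%, with a 95% interval from -0.32 to -0.0056 (limma, unadjusted p = 0.0432, adjusted p = 0.818). The exact permutation p was 0.0649.

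Pdha1, on the X chromosome, encodes the E1 alpha subunit that carries the phosphorylation sites of the kinases. Its bright probe set, 1418560_at, ran from 12.18 over a median of 12.40 to 12.48 in knockout and from 12.41 over 12.46 to 12.50 in wild type. The wild type arrays were close together (SD 0.0303, n = 6) and the knockout arrays were spread more widely (SD 0.108, n = 6), 4 of them below every wild type array. The difference was -0.089 ± 0.0518 (95% interval -0.20 to 0.021, limma, adjusted p = 0.878). At the dimmer probe set, 1449137_at, the knockout arrays ran from 10.29 over 10.99 to 11.26 and the wild type arrays from 10.98 over 11.16 to 11.28. The difference there, -0.22 ± 0.118 (adjusted p = 0.868), shrank to -0.090 without knockout replicate 5, the array at 10.29.

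Pdhb encodes the E1 beta subunit, and its probe sets disagreed. The bright one, 1416090_at, gave 11.37, 11.49 and 11.62 as lowest, median and highest in knockout, against 11.28, 11.45 and 11.63 in wild type. It was the only subunit probe set with a positive difference, 0.028 ± 0.0597 (95% interval -0.098 to 0.15, limma, adjusted p = 0.976). That sign turned after a further quantile normalization, without knockout replicate 4 or wild type replicate 1, and in the mean of both probe sets (-0.038 ± 0.0433). The dimmer one, 1448214_at, ran from 7.45 over 7.59 to 7.75 in knockout and from 7.63 over 7.69 to 7.77 in wild type. There 5 knockout arrays lay below every wild type array, and the difference was -0.10 ± 0.0513 (95% interval -0.21 to 0.0049, limma, adjusted p = 0.841, exact permutation p = 0.0411).

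Knockout replicate 4 had the lowest knockout value at the bright Pdha1 probe set, at 2 Dlat probe sets and at Dld, and the highest knockout value at the bright Pdhb, the bright Pdk1 and the Pdk3 probe sets. Without it the differences were -0.050 for bright Pdha1, -0.11 for Dlat 1426265_x_at, -0.21 for Dlat 1426264_at and -0.12 for Dld. For Dld the array with the most weight was wild type replicate 5, the highest at 8.61, without which the difference was -0.11. The difference of Dlat 1452005_at was -0.026 without wild type replicate 1 and -0.027 without wild type replicate 6. The part of knockout replicate 4 in the subunit differences beyond these values was not tested. Among wild type arrays, replicate 2 was lowest at all 3 Dlat probe sets and at Dld. Without it these differences were larger. They were -0.21 for Dlat 1426265_x_at, -0.27 for Dlat 1426264_at, -0.078 for Dlat 1452005_at and -0.20 for Dld.

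At an unadjusted p below 0.05, 2 Dlat probe sets and the 1 of Dld were lower in knockout. The bright Pdhb probe set gave a positive difference, and the dimmer one (-0.10) and the third Dlat probe set (-0.049) gave negative ones. Whether these genes differ from each other was not tested. The start regions of these 3 subunit genes are shown. Each is the RefSeq sequence of GRCm38.p6, from 250 bases before to 50 after the annotated start, 5′ to 3′ on the gene's strand. Capitals mark matches, on either strand, to the GC box GGGCGG, to the pentamer known as the CCAAT box, to the TATA box spelled TATAAA, and to the element bound by estrogen-related receptors (TCAAGGTCA). No printed matches overlap.
Dlat, chr9:50659731-50660030, minus strand: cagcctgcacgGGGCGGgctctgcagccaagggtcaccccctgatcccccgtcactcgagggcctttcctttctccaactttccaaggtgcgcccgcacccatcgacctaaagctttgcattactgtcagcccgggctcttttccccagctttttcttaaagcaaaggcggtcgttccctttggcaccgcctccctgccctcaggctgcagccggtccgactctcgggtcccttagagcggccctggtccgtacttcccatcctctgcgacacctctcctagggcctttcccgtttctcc
Dld, chr12:31351422-31351721, minus strand: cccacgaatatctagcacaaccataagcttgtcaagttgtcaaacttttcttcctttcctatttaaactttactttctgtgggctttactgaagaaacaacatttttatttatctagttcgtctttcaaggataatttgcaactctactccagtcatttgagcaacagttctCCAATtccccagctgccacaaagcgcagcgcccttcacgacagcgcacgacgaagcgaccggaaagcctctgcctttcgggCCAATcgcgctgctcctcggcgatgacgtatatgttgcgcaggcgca
Pdhb, chr14:8172943-8173242, minus strand: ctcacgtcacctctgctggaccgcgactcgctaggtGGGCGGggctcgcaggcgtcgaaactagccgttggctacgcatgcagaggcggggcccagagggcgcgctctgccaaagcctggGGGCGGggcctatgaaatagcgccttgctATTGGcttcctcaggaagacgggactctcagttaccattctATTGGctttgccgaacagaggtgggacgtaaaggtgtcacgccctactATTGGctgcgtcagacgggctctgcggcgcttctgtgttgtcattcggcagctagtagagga
In these windows Dlat held 1 GC box, Dld 2 CCAAT boxes, and Pdhb 2 GC boxes and 3 CCAAT boxes, these CCAAT boxes reading as ATTGG on the printed strand. None of the 4 motifs matched in the Pdha1 window, which is not printed. Of 32851 promoter windows of this length, 35.7% held a GC box, 37.4% a CCAAT box, 13.6% a TATA box and 0.423% the estrogen-related receptor element. A match is a run of letters and was not measured as a binding site. The GC content was 62% for Dlat, 47% for Dld and 61% for Pdhb, against a median of 52.7% over all windows.

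Among the kinases, Pdk2, a widely expressed isoform, had the smallest standard error of the member probe sets. Its probe set ran from 11.03 over a median of 11.10 to 11.17 in knockout, against 10.96, 11.02 and 11.09 in wild type. All 6 knockout arrays were above the wild type median and 3 were above every wild type array. The difference was 0.069 ± 0.0433, or 4.92%, with a 95% interval from -0.022 to 0.16 (limma, unadjusted p = 0.128, adjusted p = 0.896). It was 0.033 after a further quantile normalization (limma, adjusted p = 0.949). With each array centred on its median it was 0.081 (limma, adjusted p = 0.835). The exact permutation test, which uses this probe set's own spread and not a spread shared across probe sets, gave a two-sided p of 0.0238. By that test 3 of the 12 member probe sets had a p below 0.05, the others being Dlat 1426264_at and Pdhb 1448214_at, against 6.16% of all probe sets. Of the 11313 probe sets above the median level, 918 had such a p. Without wild type replicate 3 or without wild type replicate 5 the member count was 1.

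Pdk1 encodes a kinase that is induced by low oxygen in many tissues. Its bright probe set, 1423748_at, gave 8.08, 8.15 and 8.31 as lowest, median and highest in knockout, against 8.03, 8.17 and 8.26 in wild type, with a difference of 0.011 ± 0.0534 (95% interval -0.10 to 0.12, adjusted p = 0.991). The dim probe set, 1423747_a_at, lay below the median level of all probe sets and ran from 5.66 over 5.90 to 6.09 in knockout and from 5.50 over 5.83 to 6.13 in wild type (difference 0.059 ± 0.0943, 95% interval -0.14 to 0.26, adjusted p = 0.966). The genotypes overlapped almost fully at both. The sign of both Pdk1 differences depended on single arrays: it turned for the bright probe set without knockout replicate 4, wild type replicate 1 or wild type replicate 3, and for the dim one without wild type replicate 2.

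Pdk3, also X-linked, encodes a kinase known for high activity towards E1 and for expression in brain and testis. It ran from 6.97 over 7.13 to 7.26 in knockout, against 7.02, 7.16 and 7.32 in wild type. The ranges nearly coincided, with a difference of -0.033 ± 0.0610 (95% interval -0.16 to 0.096, limma, adjusted p = 0.972). Its mean level lay at the 51.5 percentile of all probe sets.

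**Figure D2:**
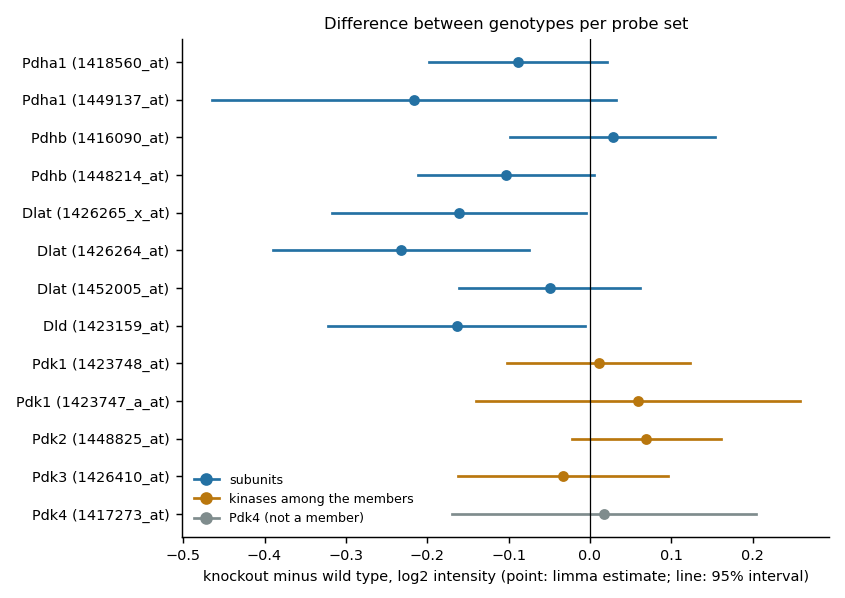
Knockout minus wild type difference in log2 intensity (x axis) for each member probe set and for Pdk4, with points for limma estimates over 6 against 6 arrays and lines for 95% intervals. The intervals of 2 Dlat probe sets and of Dld lie below 0, down to -0.39. Those of both Pdha1 probe sets, both Pdhb probe sets, Dlat 1452005_at and all kinases include 0. The intervals are not adjusted for the number of probe sets, and no member passed over all probe sets.

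Pdk4, the kinase most strongly tied to fasting in muscle, was not a member and had 1 probe set, at the 99.3 percentile of all probe sets. It ran from 11.96 over 12.22 to 12.48 in knockout and from 11.94 over 12.22 to 12.38 in wild type, so the medians were nearly equal. The difference was 0.017 ± 0.0887, with a 95% interval from -0.17 to 0.20 (limma, adjusted p = 0.991). The other regulators and the E3-binding protein that were listed with it, Pdp2, Pdpr and Pdhx, were not analysed here.

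The genes that bring pyruvate to the complex or carry it elsewhere were listed as well, together with the cytosolic and mitochondrial aspartate aminotransferases. None of the 13 measured of 14 passed over all probe sets. Of these, 10 had a negative difference, with a median of -0.052, and 4 had an unadjusted p below 0.05, 3 with lower and 1 with higher values in knockout. Over all probe sets 52.9% were lower, and 2.69% were lower and 3.35% higher at that p. The 3 lower genes at that p were Slc16a1 and both aspartate aminotransferases. Got1, the cytosolic aspartate aminotransferase of the malate-aspartate shuttle, ran from 10.77 over 11.09 to 11.24 in knockout, against 11.09, 11.40 and 11.57 in wild type (difference -0.32 ± 0.0870, limma, adjusted p = 0.603). Slc16a1, the lactate and pyruvate transporter MCT1, averaged 8.07 ± 0.131 in knockout and 8.25 ± 0.166 in wild type (SD, n = 6 each), a difference of -0.18 ± 0.0766 (limma, adjusted p = 0.810). Gpt2, the mitochondrial alanine aminotransferase, which makes alanine from pyruvate, averaged 10.23 ± 0.169 in knockout and 10.01 ± 0.175 in wild type, a difference of 0.22 ± 0.0853 (limma, adjusted p = 0.783). The other Gpt2 probe sets gave 0.040 and 0.067.

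Of the sister 2-oxo acid dehydrogenases and the lipoylation enzymes, 11 of 13 listed genes were measured, with 5 lower, 6 higher, a median of 0.0034 and 0 past the threshold. At an unadjusted p below 0.05 there was 1 gene, higher in knockout, against 3.35% of all probe sets. This was Dbt, the E2 core of the branched-chain complex and thus the counterpart of Dlat there, which averaged 7.49 ± 0.140 in knockout and 7.25 ± 0.230 in wild type (SD, n = 6 each). Its difference was 0.24 ± 0.0927 (limma, adjusted p = 0.783). Bckdhb, the E1 beta subunit of the same complex, gave 0.13 ± 0.0622 and Lipt1, a lipoyltransferase that loads E2 proteins, -0.13 ± 0.0629 (limma, adjusted p = 0.821 and 0.847). Lipt1 lies on chromosome 1, as does Prkag3, and no member does. Whether this position bears on the Lipt1 difference was not tested.

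Transcription factors known to act on kinase genes of this family were all measured, 8 of 8, with 3 lower and 5 higher, and 0 at an unadjusted p below 0.05. Over all probe sets 52.9% were lower and 6.04% had such a p in either direction. Foxo1, which drives Pdk4 in fasting, averaged 8.89 ± 0.479 in knockout and 8.54 ± 0.419 in wild type (SD, n = 6 each). The spread within each genotype exceeded the difference of 0.36 ± 0.203 (limma, adjusted p = 0.876), and 3 further probe sets gave 0.041 to 0.30. Rxra, the partner of PPAR receptors, gave 0.086 ± 0.0464 and Nr3c1, the glucocorticoid receptor, 0.12 ± 0.0927 (limma, adjusted p = 0.868 and 0.912). A dimmer Rxra probe set gave -0.052, and the dimmer Nr3c1 probe sets -0.13 and 0.19.

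Because red and white fibres differ in oxidative enzymes, the members were set against a slow fibre level, the mean of 13 slow fibre genes centred over the arrays. That level ran from -0.54 to 0.72 over knockout arrays and from -0.50 to 0.73 over wild type arrays, and averaged -0.13 in knockout and 0.13 in wild type (p = 0.361 in a two-sided exact permutation test). In a fit with genotype and this level, 0 of 12 member probe sets passed over all probe sets, where 0.0177% of those outside the slow fibre list did. At an unadjusted p below 0.05 there was 1 of 12, against 7.08%. This was the dim Pdk1 probe set, with a slope of 0.26 ± 0.0936 per unit of the level (limma, adjusted p = 0.577). The bright Pdk1 probe set had a slope of 0.079 ± 0.0613 (limma, adjusted p = 0.829). For bright Pdha1 the slope was 0.015 ± 0.0624 (limma, adjusted p = 0.976). The dim Pdha1 probe set had a slope of 0.24 ± 0.128 (adjusted p = 0.726) and Dlat 1426264_at one of 0.071 ± 0.0880 (adjusted p = 0.903). Single arrays moved these slopes: without knockout replicate 2 they were 0.42 for dim Pdk1, 0.14 for dim Pdha1 and 0.19 for Dlat 1426264_at. Dim Pdha1 also gave 0.15 without knockout replicate 5. Dlat 1426264_at gave 0.014 without wild type replicate 2 and 0.047 without wild type replicate 6. Fitted by genotype, that slope was -0.10 in knockout arrays alone and 0.23 in wild type arrays alone. With the 2 arrays farthest in the level left out, the slopes were 0.46 for dim Pdk1, 0.19 for dim Pdha1 and 0.21 for Dlat 1426264_at. With the level in the fit, the genotype difference was -0.21 ± 0.0782 for Dlat 1426264_at, -0.15 ± 0.0794 for Dld, -0.15 ± 0.114 for dim Pdha1 and 0.12 ± 0.0831 for dim Pdk1.

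**Figure D3:**
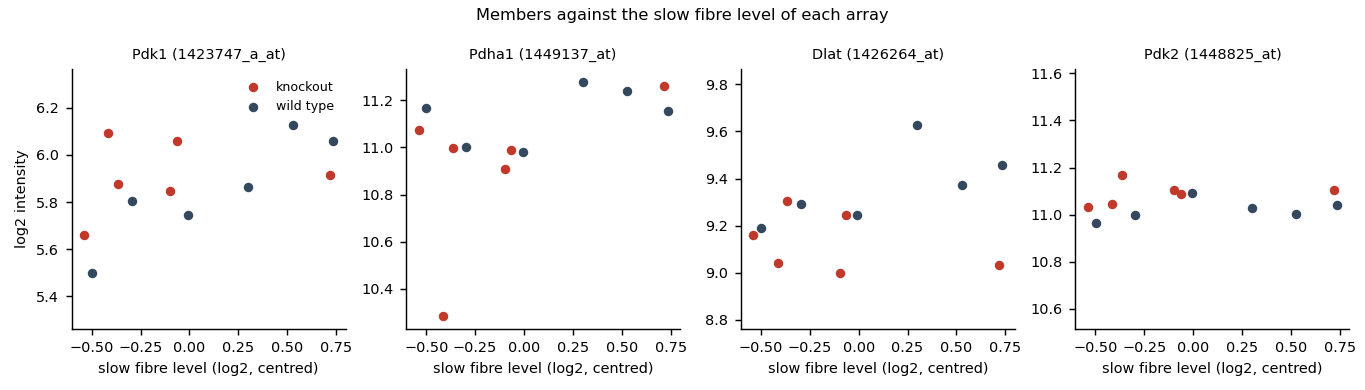
Log2 intensity (y axis) against the slow fibre level of each array (x axis, centred log2) for 1 probe set each of Pdk1, Pdha1, Dlat and Pdk2, with 1 point for each of 6 knockout and 6 wild type arrays. Slopes per unit of the level were 0.26 for Pdk1, 0.24 for Pdha1, 0.071 for Dlat and 0.033 for Pdk2, and none passed over all probe sets.

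Markers of other cells were read as mean levels of their lists. The adipocyte list, 6 of 8 genes measured, averaged 0.067 in knockout (-0.055 to 0.21) and -0.067 in wild type (-0.28 to 0.091), with 4 of 6 genes higher in knockout. The endothelial list, 8 of 8 measured, averaged -0.024 in knockout (-0.11 to 0.045) and 0.024 in wild type (-0.051 to 0.13). The leukocyte list (8 genes), the fibroblast list (6 genes) and the liver list (4 genes) differed by at most 0.026 between genotypes. The Schwann cell list, 3 of 6 measured, averaged 0.056 in knockout (-0.10 to 0.15) and -0.056 in wild type (-0.20 to 0.070), with 2 of 3 genes higher in knockout. The two-sided p of an exact permutation test was 0.0801 for the Schwann cell list, 0.0974 for the adipocyte list and 0.203 for the endothelial list. RMA values have no true 0, so no marker could be called absent, and the part of these cells in the member values was not tested.

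Within the fluidics runs, the differences of the 3 members with an unadjusted p below 0.05 kept their sign. In runs 1, 2 and 3 the difference was -0.18, -0.12 and -0.40 for Dlat 1426264_at, -0.11, -0.11 and -0.26 for Dlat 1426265_x_at, and -0.078, -0.17 and -0.24 for Dld. Bright Pdha1 gave -0.049, -0.18 and -0.038 in these runs, and Pdk2 0.070, 0.12 and 0.022. Dim Pdhb was also negative in all 3 runs, at -0.16, -0.049 and -0.10. The sign differed between runs for the other 6 member probe sets. These were dim Pdha1 (0.063, -0.13 and -0.58), bright Pdhb (0.12, 0.064 and -0.10), Dlat 1452005_at (-0.13, 0.022 and -0.039), bright Pdk1 (0.0043, 0.082 and -0.054), dim Pdk1 (-0.0042, 0.30 and -0.12) and Pdk3 (0.029, -0.099 and -0.029). Each run holds 2 arrays per genotype, so these values carry no test. In a fit with genotype and run, 0 of 22626 probe sets passed for run (limma), and 1 of the 12 members had an unadjusted p below 0.05, against 6.31% of all probe sets. This was Dld (limma, adjusted p = 0.708), whose mean log2 level over both genotypes was 8.20, 8.14 and 8.37 in runs 1, 2 and 3.

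Probe sets of the same gene did not always follow each other from mouse to mouse. In 12 relations over the 12 arrays, with genotype means taken out, Benjamini-Hochberg adjustment was made over the 12. The permutations shuffled the deviations over all 12 arrays and not within genotype. They take no account of the genotype means taken out, so these p-values can be too small. The 2 farthest arrays of a pair were those farthest from the median of its brighter probe set, so they can differ between pairs. Leaving them out narrows the range of that probe set. The Dlat probe sets 1426265_x_at and 1426264_at correlated at r = 0.813 (permutation test, p = 0.00115, adjusted p = 0.0138) and rho = 0.930 (permutation p = 5e-05, adjusted p = 0.0006), r = 0.836 without the 2 farthest arrays, and r = 0.798 with the fluidics run taken out as well. The third Dlat probe set correlated with them at r = 0.494 and 0.462 (permutation test, adjusted p = 0.253 and 0.262), or -0.045 and 0.317 without the 2 farthest arrays. The Pdhb probe sets ran against each other at r = -0.502 and rho = -0.636 (permutation p = 0.0928 and 0.0293, adjusted p = 0.253 and 0.170). The Pdha1 probe sets gave r = 0.108 and rho = 0.161 (permutation test, adjusted p = 0.746 and 0.926), and those of Pdk1 r = 0.270 and rho = 0.350 (adjusted p = 0.525 and 0.530).

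Between subunits, the brightest Dlat probe set and Dld gave the highest correlation, at r = 0.678 (permutation p = 0.0158, adjusted p = 0.0949) and rho = 0.601 (permutation p = 0.0425, adjusted p = 0.170). This r was 0.262 without the 2 arrays farthest in Dlat, which narrows the range of Dlat values, and 0.760 with the fluidics run taken out. The bright Pdha1 and Pdhb probe sets, whose products form E1 together, gave r = -0.539 and rho = -0.385 (permutation p = 0.0742 and 0.217, adjusted p = 0.253 and 0.522). The other pairs of subunits lay between r = -0.133 and 0.320. Without the 2 farthest arrays, r turned to -0.371 for Pdha1 with Dlat and to -0.126 for Pdha1 with Dld, and was -0.512 for Pdhb with Dlat, -0.468 for Pdhb with Dld and -0.588 for Pdha1 with Pdhb.

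**Figure D4:**
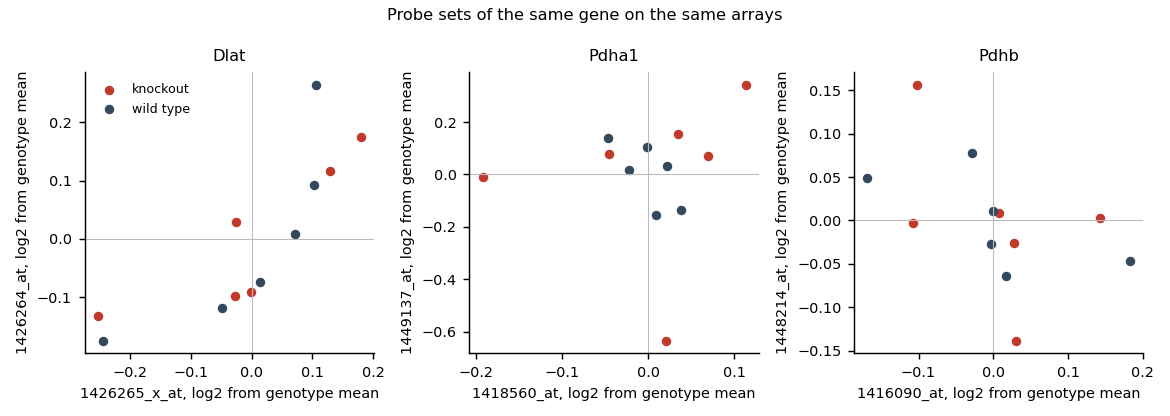
Deviation from the genotype mean in log2 intensity of 1 probe set (x axis) against another of the same gene (y axis), for Dlat, Pdha1 and Pdhb, with 1 point for each of 6 knockout and 6 wild type arrays. The Dlat pair lies along a line (r = 0.813), the Pdha1 pair does not (r = 0.108), and the Pdhb pair slopes down (r = -0.502).

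The genes whose array-to-array pattern was most like the mean of the 4 subunits' brightest probe sets were ranked among 7353 genes above the median level, over 12 arrays with genotype means taken out. The mean was of unscaled deviations, so Dlat and Dld, with the wider spread, weighed more. The 4 probe sets did not share 1 pattern, with r between pairs from -0.539 to 0.678. The first 5 were Pnrc1 (r = 0.887, rho = 0.839), Jun (r = 0.887, rho = 0.769), Uqcrh (r = 0.886, rho = 0.629), Mfsd14a (r = 0.853, rho = 0.867) and Sar1b (r = 0.850, rho = 0.741). With the 2 arrays farthest in the subunit mean left out, r was 0.852, 0.804, 0.690, 0.849 and 0.641 in that order. With the fluidics run taken out it was 0.878, 0.822, 0.848, 0.756 and 0.779. Uqcrh encodes a subunit of respiratory complex III, Jun a transcription factor, and Sar1b a GTPase of transport from the endoplasmic reticulum. These are the highest of many correlations and describe these arrays only, so they carry no p. Between genotypes they gave differences from -0.049 for Uqcrh to 0.074 for Pnrc1, and none passed (limma, adjusted p = 0.898 or more).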

How the data were processed

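RNA of 12 mice was measured on 1 array each. The deposited intensity values were made by the authors with RMA, per the submitters' processing notes, which give no version. RMA corrects background, gives all arrays like distributions and combines the probes of a set, so differences shared by most genes are lost. The values are linear, from 7.47 to 21828, and log2 was taken here. Of 22690 probe sets 64 controls were left out. Of the rest, 20380 name 1 gene, 691 several and 1555 none, per the platform annotation, with symbols updated by Entrez ID to GRCm38.p6 names. The number of arrays limits the precision.

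Genotypes were compared by lmFit and eBayes of limma (version 3.58.1, under R 4.3.3) with genotype as the only term and two-sided p-values. Benjamini-Hochberg adjustment was made over 22626 probe sets. The fit was tested on simulated data, with the pass mark for recovery set on changes larger than any member difference. That test does not speak to changes of the members' size. A gene's main probe set is its brightest. Array records gave fluidics runs (recorded hybridization times within 60 minutes of the next), scan days, cage letters and modules. The members, lists and tests were chosen with earlier results of these data known. Named were all members, Pdk4, the 3 list genes with the smallest p in each of 3 lists, and 5 genes by likeness to the subunits. Alternatives changed the block, scaling, filter, prior variance, array weights, log offset, covariate or arrays. Correlations used 100000 permutations, made across both genotypes and not within each.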

Additional observations from a re-analysis of the deposited data

Results flagged for a closer look

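The dim Pdha1 probe set, 1449137_at, read 10.29 on knockout replicate 5, while the next lowest knockout array read 10.91. The gap made up 0.639 of the range of the 6 knockout arrays, above Dixon's 95% critical value for 6 values. It was 1 such value in 24 groups of 6 arrays, and chance gives about 1 in 20. On the same array the bright Pdha1 probe set read 12.39, inside the range of the other knockout arrays.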

How the results depend on the processing

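Under 23 to 25 alternatives for each probe set, no member passed, the lowest adjusted p being 0.477 over 291 values, of which 9 turned sign. The blocks by replicate number, run, scan day and cage letter were balanced by genotype. These blocks, the filter and the prior variance left each difference as in the main fit, so no sign could turn under them. The array-wide count of called probe sets stayed between 2 and 4. With the replicate number as a block (replicate block) it was 2, with 0 members. The numbers were not taken to pair the mice, since same-numbered arrays correlated at -0.150 to 0.203 in their deviations from genotype means and 0 of 6 knockout arrays correlated best with their own number. Over all probe sets, median centring shifted differences by 0.012 and quantile normalization by 0.0087. Both Pdha1 probe sets, the dimmer Pdhb, all 3 Dlat probe sets, Dld and Pdk2 kept their direction under every alternative with a test. That includes the alternatives under which no sign could turn. Among the run-alone values, which have no test, dim Pdha1 was 0.063 in run 1 and Dlat 1452005_at 0.022 in run 2. Bright Pdhb gave -0.0029 after quantile normalization, -0.038 as the mean of its probe sets, and -0.0059 to 0.064 when 1 array was left out. With 1 array left out, bright Pdk1 gave -0.017 to 0.031, dim Pdk1 -0.011 to 0.11 and Pdk3 -0.063 to 1.79e-05. The cause was not tested. Slow fibre slopes called outside the slow fibre list numbered 4, but 0 without the 2 arrays farthest in level (knockout replicate 2 and wild type replicate 4) and 2 to 6 when 1 array was left out. They numbered 2 without knockout replicate 6, wild type replicate 2 or wild type replicate 5. Without those 2 farthest arrays the slope turned to -0.076 for bright Pdha1, 0.028 for dim Pdhb and 0.066 for Dlat 1452005_at. The last was also 0.041 with the replicate block. With 1 array left out, slopes ran from -0.063 to 0.028 for bright Pdha1, from -0.081 to 0.029 for Dlat 1452005_at and from -0.017 to 0.11 for Dld. Members with an exact permutation p below 0.05 numbered 1 to 4 when 1 array was left out.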
